A study of Mus musculus with 8 samples.

Results

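The enzymes that build and break down heme were examined in mouse liver with and without Hmgb1. They comprised 9 genes, each matched by symbol and each represented by 1 probe set, out of 19938 genes measured. Alas1, Alas2, Alad, Uros, Urod, Cpox, Ppox and Fech encode enzymes of synthesis, and Hmox1 encodes heme oxygenase 1, which opens the heme ring. The set was defined by function, but with earlier results of these data known.

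Heme is made from glycine and succinyl-CoA by a chain of enzymes that starts and ends in mitochondria and runs through the cytosol in between. The first enzyme, 5-aminolevulinate synthase, sets the rate. Most tissues use the ALAS1 form, which liver adjusts to its need for cytochrome P450 proteins and which heme holds down, whereas developing red cells use ALAS2, which is tied to iron and hemoglobin production. Heme oxygenase degrades heme to biliverdin, iron and carbon monoxide, and its inducible form is known for its response to heme and to oxidative stress and for its presence in macrophages that clear red cells.

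The 8 arrays held RNA from whole livers of male littermates, 4 with Hmgb1 deleted and 4 floxed controls, each 8 weeks old on a C57Bl/6 background after 5 backcrosses, per the protocol labels. Deletion used Albumin-Cre, a recombinase driven by a hepatocyte promoter, so other liver cell types keep the gene by design. Both groups carried floxed Hmgb1 alleles, and Cre is named only for the deleted group, so effects of Cre and of Hmgb1 loss cannot be told apart. Other labels of the same samples name stellate cells and the strain Balb/c. The hepatocyte product Alb had log2 intensities of 13.26 to 14.03, and 20 of 21 hepatocyte markers had a mean above every array's median, as did 16 of 18 stellate cell markers and 18 of 18 sinusoidal endothelial markers, while 17 of 19 lymphocyte and neutrophil markers lay below every median. Transcripts of hepatocytes and of other liver cells were both present. No label says that each array is its own animal, and the p-values then reflect only array-to-array spread, which may be technical.

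Hmgb1 itself had log2 intensities of 4.91, 4.20, 4.53 and 4.74 on deleted arrays 1 to 4 and 5.35, 5.42, 5.45 and 5.78 on control arrays 1 to 4, or −0.91 for deleted minus control (SE 0.14, limma adjusted p = 0.0216). The groups did not overlap. The call was lost without deleted 3 (adjusted p = 0.0730), deleted 4 (0.0687), control 3 (0.0561) or control 4 (0.0797). Array medians over the genes tested ran from 6.45 to 6.59, and all 9 heme genes had means above them. Hmgb1 lay below every median on each array, and 16.4% of genes had a lower mean. Its difference at such dim values does not measure how complete the deletion was. Control 1 stood apart, with a position of −26.64 on the first principal component against −11.39 to 11.73 for the other 7 arrays. Control 1 held the lowest of the 8 values for Alas1, Urod, Fech and, tied, Hmox1, and the highest for Alad.

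Promoter sequence was available for 7 of the 9 genes (RefSeq, GRCm38.p6), in 10 windows that run from 250 bases before an annotated start to 50 after it. Fech and Hmox1 had no entry. The windows were searched on both strands for AGATAA or TGATAA, spellings of the core that GATA factors read. Other spellings of that core were not searched. The same windows were searched for CACGTG, the E-box, for GCATGCGC, part of the NRF1 site, and for TGACNNNGC, the core of the antioxidant response element. The shares of all 32851 windows that held each motif were, in that order, 18.6%, 7.15%, 2.71% and 12.4%. The stretches below are those of the 2 genes with the largest differences and, for the E-box and the GATA core, of 3 other enzymes for comparison, with the matches in capitals.
Alas2 (chrX:150547167-150547416, plus strand, the 250 bases before its start): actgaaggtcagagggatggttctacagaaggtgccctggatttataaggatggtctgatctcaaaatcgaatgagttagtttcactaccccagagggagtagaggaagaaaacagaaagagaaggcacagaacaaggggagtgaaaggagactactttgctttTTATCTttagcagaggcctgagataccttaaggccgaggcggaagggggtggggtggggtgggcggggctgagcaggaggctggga
Alas1 (chr9:106247906-106247935, minus strand): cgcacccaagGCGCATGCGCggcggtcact
Cpox (chr16:58670110-58670139, plus strand): aaagcgcctatcTTATCAgtccaagcacct
Alad (chr4:62520151-62520180, minus strand): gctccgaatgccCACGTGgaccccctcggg
Urod (chr4:116994445-116994474, minus strand): cactggatcggtCACGTGgttctcaatatg

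In the spellings searched, the GATA core was found for Alas2, Cpox and Uros. It lay at positions −86 to −81 from the start (the start base being 0) for both Alas2 and Cpox. Cpox held another at 4 to 9 after its start. The E-box was found for Alad, Urod and Uros. The NRF1 part was found for Alas1 alone of the 7 genes, as 2 overlapping matches on opposite strands, at −195 to −186 from the second of its annotated starts and at 29 to 38 after the first. The antioxidant core was in 0 of the 7 genes' windows. These matches describe the sequence and do not show that a factor binds.

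Of the 9 heme genes, 0 passed the threshold of adjusted p under 0.05 over all genes tested (limma), where 0.692% of all genes passed. At an unadjusted p under 0.05 there were 2, Alas2 and Alas1, where 9.46% of all genes fell. The groups did not overlap for 1 gene, Alas2, against 5.57% of all genes. The values leaned to the higher side in deleted livers for 7 of the 9 genes, with a median log2 fold change of 0.080, against 49.2% of all genes higher and a median of 0. In the plot of the 9 genes by array, Alas2 is the panel in which the groups are separate.

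**Figure D1:**
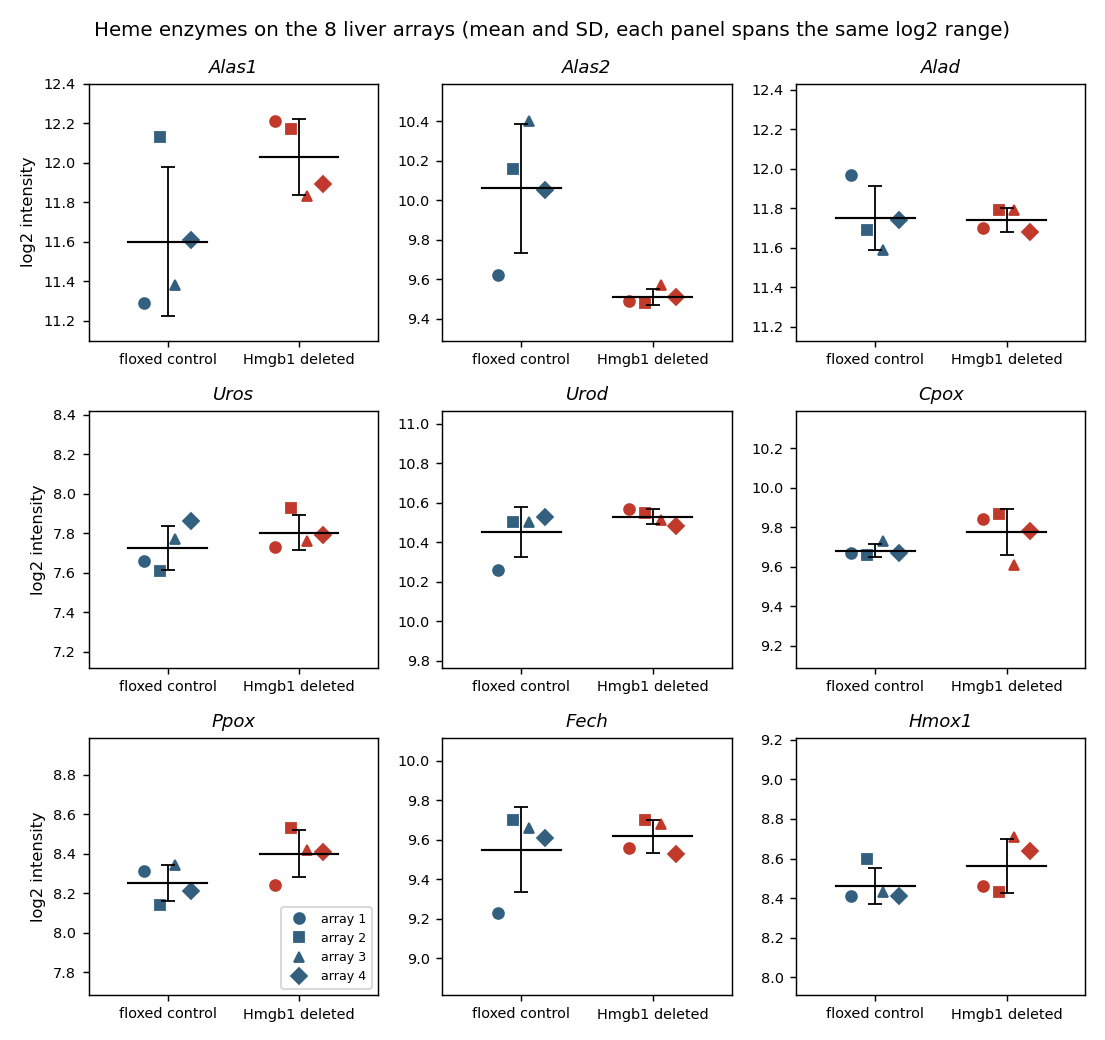
Log2 intensity of each heme gene on the 4 floxed control (blue) and 4 Hmgb1 deleted (red) arrays, with the array number given by the symbol, the group mean as a line and the SD as a bar. The 4 deleted values of Alas2 lie between 9.48 and 9.57, below all controls, and control 1 (circle) is the lowest control for Alas1, Alas2, Urod and Fech.

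Alas2 (gene ID 11656, probe set 10602372) lies on chromosome X at 150547417 to 150570622. It encodes the red cell form of the first enzyme. Its log2 intensities were 9.49, 9.48, 9.57 and 9.51 on deleted arrays 1 to 4 and 9.62, 10.16, 10.40 and 10.05 on control arrays 1 to 4. The deleted values were tightly grouped, the controls were spread, and control 1 lay close to the deleted arrays.

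The means for Alas2 were 9.51 ± 0.040 (SD, n = 4) and 10.06 ± 0.33 (SD, n = 4), a log2 fold change of −0.55 (SE 0.13, 95% interval −0.84 to −0.25), or 1.46-fold lower, with a limma adjusted p of 0.119. In the main comparison the difference did not pass over all genes. Without control 1 the difference was −0.69 and passed (limma adjusted p = 0.00281), and with array weights, which gave control 1 a weight of 0.254 against 0.592 to 2.584 for the others, it was −0.64 (limma adjusted p = 0.00472). With control 1 kept, quantile normalization applied again gave −0.54 (limma adjusted p = 0.0450), and a replicate block gave −0.545 (limma adjusted p = 0.0456). Over the 17 alternatives tried, adjusted p for Alas2 ran from 0.00281 to 0.310, and the direction was lower in each.

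Alas1 (gene ID 11655, probe set 10596454) lies on chromosome 9 at 106233455 to 106247954. It encodes the form that sets heme output in hepatocytes. Its log2 intensities were 12.21, 12.17, 11.83 and 11.89 on deleted arrays 1 to 4 and 11.29, 12.13, 11.38 and 11.61 on control arrays 1 to 4. The deleted arrays were mostly above the controls, but control 2 lay among them, so the groups overlapped.

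The means for Alas1 were 12.03 ± 0.19 (SD, n = 4) and 11.60 ± 0.38 (SD, n = 4), a log2 fold change of 0.42 (SE 0.17, 95% interval 0.056 to 0.79), or 1.34-fold higher. This did not pass over all genes (limma adjusted p = 0.420). With 1 array left out it ran from 0.32 without control 1 to 0.60 without control 2 (limma adjusted p = 0.418 and 0.0831), and it was 0.26 without both arrays numbered 1. Over the 17 alternatives adjusted p ran from 0.0831 to 0.734.

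The 2 forms of the first enzyme thus had fitted differences of opposite sign, with 95% intervals that did not meet. As a description, the difference Alas1 minus Alas2 in log2 intensity was 2.72, 2.69, 2.26 and 2.38 on deleted arrays 1 to 4 and 1.67, 1.97, 0.98 and 1.56 on control arrays 1 to 4. All 4 deleted arrays lay above all 4 controls in this difference. Neither gene passed on its own and the difference between them was not tested, and values of different probe sets do not say which form is more abundant.

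**Figure D2:**
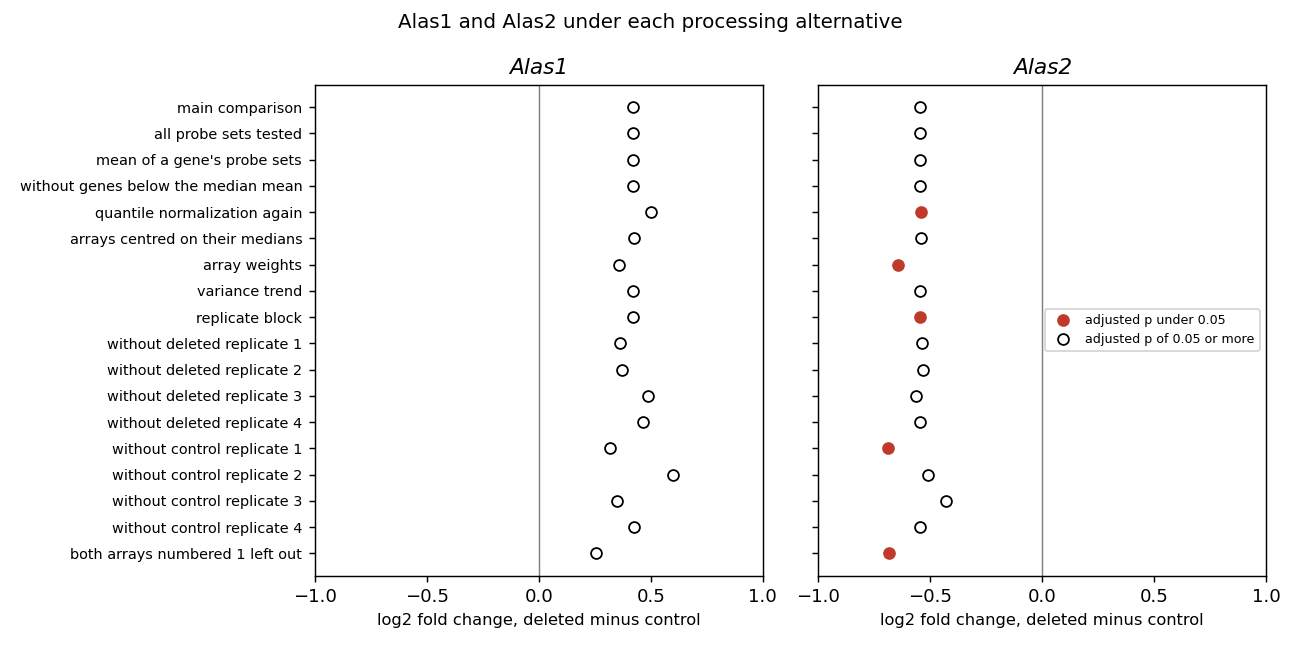
Log2 fold change (deleted minus control) of Alas1 and Alas2 in the main comparison and under 17 alternatives, with filled points where the limma adjusted p was under 0.05. Alas2 is below 0 in every row, from −0.69 to −0.43, and filled in 5 of them, and Alas1 is above 0 in every row, from 0.26 to 0.60, and filled in none.

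The enzymes that follow ALAS moved little. Alad (gene ID 17025, probe set 10513608, chromosome 4 at 62505984 to 62520063) joins 2 molecules of 5-aminolevulinate into porphobilinogen. Its log2 intensities were 11.70, 11.79, 11.79 and 11.68 on deleted arrays 1 to 4 and 11.97, 11.69, 11.59 and 11.74 on control arrays 1 to 4. The deleted values lay inside the range of the controls, with a log2 fold change of −0.0075 (SE 0.082) that became 0.067 without control 1.

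Uros (gene ID 22276, probe set 10568638, chromosome 7 at 133686142 to 133710467) encodes the synthase that closes the ring to uroporphyrinogen III. On the log2 scale Uros measured 7.73, 7.93, 7.76 and 7.79 on deleted arrays 1 to 4 and 7.66, 7.61, 7.77 and 7.86 on control arrays 1 to 4, so the groups overlapped (log2 fold change 0.078, SE 0.074). Urod (gene ID 22275, probe set 10515385, chromosome 4 at 116989965 to 116994436) encodes the decarboxylase that follows. On the log2 scale Urod measured 10.57, 10.55, 10.51 and 10.48 on deleted arrays 1 to 4 and 10.26, 10.50, 10.50 and 10.53 on control arrays 1 to 4. Control 1 was far below the other 3 controls, and the log2 fold change of 0.080 (SE 0.071) became 0.018 without it and 0.0033 without both arrays numbered 1.

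Cpox (gene ID 12892, probe set 10436392, chromosome 16 at 58670208 to 58680391) encodes coproporphyrinogen oxidase of the mitochondrial intermembrane space. On the log2 scale Cpox measured 9.84, 9.87, 9.61 and 9.78 on deleted arrays 1 to 4 and 9.67, 9.66, 9.73 and 9.67 on control arrays 1 to 4. Deleted 3 alone fell below the controls, and the log2 fold change was 0.093 (SE 0.068). Ppox (gene ID 19044, probe set 10360090, chromosome 1 at 171276991 to 171281193) encodes the oxidase that makes protoporphyrin IX. On the log2 scale Ppox measured 8.24, 8.53, 8.42 and 8.41 on deleted arrays 1 to 4 and 8.31, 8.14, 8.34 and 8.21 on control arrays 1 to 4. Deleted 1 alone fell within the controls, and the log2 fold change of 0.15 (SE 0.076) was the largest among the 6 enzymes after ALAS, with a limma adjusted p of 0.631.

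Fech (gene ID 14151, probe set 10459391, chromosome 18 at 64456542 to 64489098) encodes ferrochelatase, which inserts iron to complete heme. For Fech the log2 intensities were 9.56, 9.70, 9.68 and 9.53 on deleted arrays 1 to 4 and 9.23, 9.70, 9.66 and 9.61 on control arrays 1 to 4. The groups overlapped apart from the low value of control 1, and the log2 fold change of 0.068 (SE 0.10) became −0.039 without control 1.

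Hmox1 (gene ID 15368, probe set 10572897, chromosome 8 at 75093618 to 75100593) had log2 intensities of 8.46, 8.43, 8.71 and 8.64 on deleted arrays 1 to 4 and 8.41, 8.60, 8.43 and 8.41 on control arrays 1 to 4. Deleted 3 and 4 lay above the controls and deleted 1 and 2 among them. The log2 fold change was 0.098 (SE 0.080, limma adjusted p = 0.879).

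For the 7 genes other than the ALAS forms, the 95% intervals all lay within 1.3-fold in either direction, the outermost bounds being 0.32 for Ppox and −0.19 for Alad on the log2 scale. Single arrays moved several of these small values by over 1.5 times: Uros had 0.035 without deleted 2, 0.039 without control 2 and 0.12 without control 4, Cpox 0.061 without deleted 2 and 0.15 without deleted 3, and Hmox1 0.048 without deleted 3. Adjusted p in the main comparison for these 7 ran from 0.631 to 0.996 (limma). The plot of fold changes shows the 7 intervals crossing 0 and those of Alas1 and Alas2 on opposite sides.

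**Figure D3:**
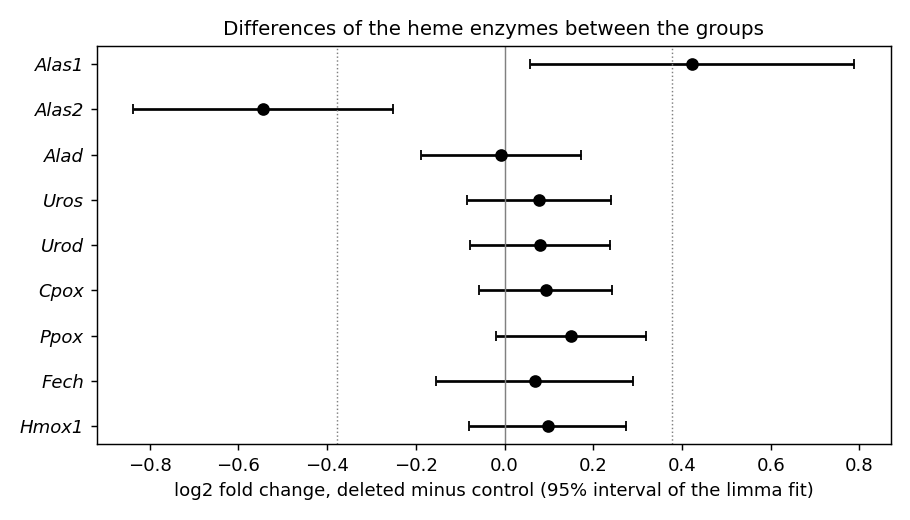
Log2 fold change of each heme gene, deleted minus control, with the 95% interval of the limma fit (n = 4 arrays in each group); dotted lines mark 1.3-fold in either direction. The intervals of Alas2 (−0.84 to −0.25) and Alas1 (0.056 to 0.79) lie on opposite sides of 0, and those of the other 7 genes stay inside the dotted lines.

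Because Alas2 belongs to red cells and their precursors, it was set beside their markers. Of 23 such genes, 14 were measured, and the globin genes lay only on probe sets shared by several genes. Of the 14, 7 were lower and 7 higher, with a median log2 fold change of −0.023, and 0 passed over all genes (limma). At an unadjusted p under 0.05 there were 3 (limma), against 9.46% of all genes. The mean log2 intensity of the list was 6.07 to 6.22 on deleted and 6.17 to 6.27 on control arrays.

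Car1, the carbonic anhydrase I of red cells, followed Alas2 most closely in that list. Its log2 intensities were 8.92, 9.15, 9.06 and 8.93 on deleted arrays 1 to 4 and 9.19, 9.72, 9.44 and 9.48 on control arrays 1 to 4, or −0.44 for deleted minus control (SE 0.10, limma adjusted p = 0.108), a difference that became −0.53 and passed without control 1 (limma adjusted p = 0.0140). It also passed in 4 other alternatives, the same in which Alas2 passed. As for Alas2, the groups did not overlap and control 1 was the lowest control. Car2, another carbonic anhydrase that many cell types make, had −0.42 (SE 0.11, limma adjusted p = 0.166). Bpgm, which makes the 2,3-bisphosphoglycerate of red cells, had 0.25 (SE 0.074, limma adjusted p = 0.224), and Tfrc, the transferrin receptor, 0.18 (SE 0.12, limma adjusted p = 0.776).

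The erythroid transcription factors Klf1 and Gata1 had log2 fold changes of −0.098 and −0.090, the membrane proteins Slc4a1 and Epb42 −0.073 and 0.0025, and none of these 4 passed. In all, 9 of the 14 markers had means below every array's median, among them Gata1, Epb42 and Rhag. In whole liver, fewer red cells and less Alas2 RNA in each cannot be told apart. The part of red cell content in the Alas2 difference was not tested.

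**Figure D4:**
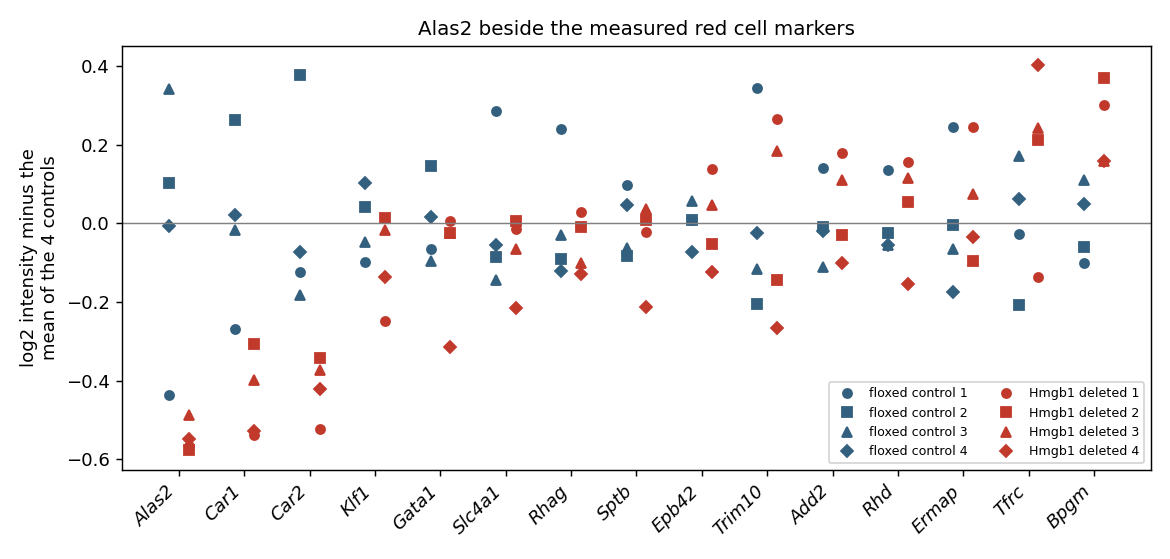
Log2 intensity of Alas2 and of the 14 measured red cell markers on each array, after subtraction of the mean of the 4 controls, with controls in blue, deleted arrays in red and the array number given by the symbol; markers are ordered by fold change. Alas2, Car1 and Car2 have all 4 deleted arrays below all 4 controls, Bpgm has all 4 above, and the groups overlap for the others. Over all genes, the groups did not overlap for 5.57%.

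Other genes of heme handling were taken as a list of 30, of which 26 were measured. Of these 16 were higher and 10 lower in deleted livers, with a median log2 fold change of 0.060, and 0 passed (limma). Unadjusted p was under 0.05 for 5 of them (limma), against 9.46% of all genes. Tspo, a porphyrin-binding protein of the outer mitochondrial membrane, had 0.29 (SE 0.097, limma adjusted p = 0.296), or 0.19 without control 1 (limma adjusted p = 0.206). Tmem14c, which helps move protoporphyrinogen into mitochondria, had 0.26 (SE 0.076, limma adjusted p = 0.214), and Cox10, which turns heme B to heme O, 0.22 (SE 0.073, limma adjusted p = 0.305). The groups did not overlap for these 3 genes of the list, against 5.57% of all genes. Abcg2, a membrane exporter that carries porphyrins, had −0.40 (SE 0.13, limma adjusted p = 0.289), and −0.55 without control 1, where it passed (limma adjusted p = 0.0102). It also passed with array weights and without both arrays numbered 1.

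After Hmox1 in the breakdown route, the biliverdin reductases Blvrb and Blvra had log2 fold changes of 0.15 and −0.033, and the constitutive heme oxygenase Hmox2 −0.13. The plasma heme carrier Hpx and the hemoglobin carrier Hp had −0.12 and −0.11. None of these 5 passed over all genes (adjusted p from 0.555 to 0.985, limma).

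Regulators known to act on Alas1, or to carry its response to fasting, drugs and the time of day, were a list of 19, of which 17 were measured. In deleted livers 12 were lower and 5 higher, with a median of −0.043. At an unadjusted p under 0.05 there were 7 (limma), against 9.46% of all genes, and 1 fell past the threshold. That gene was Per1, a clock component, at −0.49 (SE 0.079, limma adjusted p = 0.0226), from 7.54 to 7.87 on deleted and from 8.10 to 8.24 on control arrays. Its call was lost in 7 alternatives, namely with arrays centred on their medians and without deleted 1, 2 or 4 or control 2, 3 or 4. Ppargc1a, the coactivator PGC-1alpha that raises Alas1 in fasting, had log2 intensities of 7.37, 8.14, 7.70 and 7.79 on deleted arrays 1 to 4 and 9.14, 8.21, 8.27 and 8.65 on control arrays 1 to 4. It was lower on all deleted arrays, at −0.82 (SE 0.21), without passing (limma adjusted p = 0.134). These values come from 1 of its 2 probe sets. Control 1, the array that stood apart, held both the lowest Alas1 value and the highest Ppargc1a value.

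The drug-sensing receptors Nr1i3 (CAR) and Nr1i2 (PXR) had −0.32 (SE 0.091) and −0.25 (SE 0.067), and did not pass (limma adjusted p = 0.192 and 0.167). Nrf1, whose site part stands in the Alas1 promoter shown above, had −0.018, and the heme-binding repressor Nr1d1 had −0.83 (SE 0.30, limma adjusted p = 0.359), or −0.52 without deleted 1. Its relative Nr1d2 had −0.57 (SE 0.18, limma adjusted p = 0.255), which passed with array weights, the replicate block and both arrays numbered 1 left out. The clock output gene Dbp had −0.71 (SE 0.25, limma adjusted p = 0.335), which passed without control 1 at −0.96 (limma adjusted p = 0.0377). The regulators named so far were all lower. The 5 higher ones were Per2 (0.2325), Hlf (0.095), Foxo1 and Rxra (0.0425 each) and Arntl (0.0375), and none of them passed.

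Regulators of Hmox1 and genes that NRF2 induces along with it were a list of 18, of which 17 were measured, with 10 higher, 7 lower and a median of 0.0050. Of these 0 passed (limma), with 2 at an unadjusted p under 0.05, against 9.46% of all genes. Osgin1, an oxidative stress-induced growth inhibitor, had log2 intensities of 9.97, 9.90, 9.91 and 9.99 on deleted arrays 1 to 4 and 8.22, 9.39, 9.24 and 9.11 on control arrays 1 to 4. It was higher on all deleted arrays, at 0.95 (SE 0.20, limma adjusted p = 0.0778), and at 0.70 without control 1, where it passed (limma adjusted p = 0.00172). It passed in 6 of the 17 alternatives. Keap1, which holds NRF2 in check, had 0.25, Pgd 0.20 (0.079 without deleted 3) and Srxn1 0.13 (0.083 without control 1), while NRF2 itself (Nfe2l2) had −0.010, the heme-sensing repressor Bach1 −0.15 and Nqo1 0.018. None of these passed.

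Kupffer cells and other macrophages also express Hmox1. Of 21 measured macrophage markers 12 were higher and 9 lower, with a median of 0.0050 and 0 past the threshold (limma). Unadjusted p was under 0.05 for 4 of them (limma), against 9.46% of all genes. The mean log2 intensity of the markers was 7.93 to 8.01 on deleted and 7.93 to 8.04 on control arrays. Slc40a1, the iron exporter ferroportin, had −0.25 (limma adjusted p = 0.158), Vsig4 −0.23, Lyz2 −0.35 and Mpeg1 0.45. The part of macrophage content in the Hmox1 values was not tested.

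Proteins of liver that hold heme, or are subunits of complexes that do, were the last list, with 31 of 31 measured. In deleted livers 27 were lower and 4 higher, with a median log2 fold change of −0.090, where 50.8% of all genes were lower. At an unadjusted p under 0.05 there were 11 (limma), against 9.46% of all genes, and 2 fell past the threshold. Tdo2, a heme dioxygenase that opens the tryptophan ring, had log2 intensities of 12.38, 12.40, 12.19 and 12.09 on deleted arrays 1 to 4 and 12.77, 12.64, 12.72 and 12.70 on control arrays 1 to 4, and fell by 0.44 (SE 0.079, limma adjusted p = 0.0345). Cyp2c55, a cytochrome P450, fell by 0.72 (SE 0.13, limma adjusted p = 0.0337). It was dim, with 5.69, 6.05, 5.44 and 5.88 on deleted arrays 1 to 4 and 6.25, 6.66, 6.55 and 6.49 on control arrays 1 to 4. Only 41.4% of genes had a lower mean, so the alternative without genes below the median mean gave no value for Cyp2c55. Both calls were lost without deleted 3, deleted 4, control 2, control 3 or control 4, and that of Cyp2c55 also without deleted 1, with arrays centred on medians and after quantile normalization again. Cyp7b1, an oxysterol hydroxylase, had −0.95 (SE 0.26, limma adjusted p = 0.183), or −0.62 without deleted 2 and −1.18 with array weights, where it passed (limma adjusted p = 0.0241), with deleted 2 at 9.89 and the other deleted arrays at 11.03 to 11.43 against 11.62 to 11.98 on controls. Cyp1a2 (−0.29) and Cyp2j5 (−0.26) were lower on all deleted arrays and did not pass (limma adjusted p = 0.111 and 0.126). Both passed with array weights (limma adjusted p = 0.0433 and 0.0215), and Cyp2j5 also without control 1, at −0.29 (limma adjusted p = 0.0487). Among the 4 higher heme proteins, Ido2 had 10.42 to 10.75 on deleted and 10.15 to 10.39 on control arrays, without overlap. Its log2 fold change was 0.26 (SE 0.084) and did not pass (limma adjusted p = 0.272).

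Hepatocyte markers, which were not chosen for heme, were lower for 18 of 21, with a median of −0.105 and 0 past the threshold (limma). Unadjusted p was under 0.05 for 3 of these markers (limma), against 9.46% of all genes. The smallest p among them were those of Ttr (−0.25), Itih2 (−0.19), Pck1 (−0.22) and Fgb (−0.17). After quantile normalization again, 22 of the 31 heme proteins and 9 of the 21 hepatocyte markers were lower. Deleted 4 had the lowest Alb value, 13.26 against 13.93 to 14.03 elsewhere. Of 18 sinusoidal endothelial markers 17 were lower, with a median of −0.204 and 10 at an unadjusted p under 0.05 (limma), against 9.46% of all genes. Past the threshold was 1, the lectin Clec4g, which fell by 0.62 (SE 0.076, limma adjusted p = 0.00628). With the mean of its 2 probe sets Clec4g had −0.27 and the call was lost (limma adjusted p = 0.121). Stellate markers were lower for 13 of 18 (median −0.025) and lymphocyte and neutrophil markers for 9 of 19 (median 0.0075). Past the threshold were 0 in either list (limma), with 3 and 0 at an unadjusted p under 0.05, against 9.46% of all genes. The part of these shifts in the values of the heme proteins was not tested. In the plot of related lists, the heme enzymes lie near 0 apart from the ALAS forms, and most heme proteins lie below 0.

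**Figure D5:**
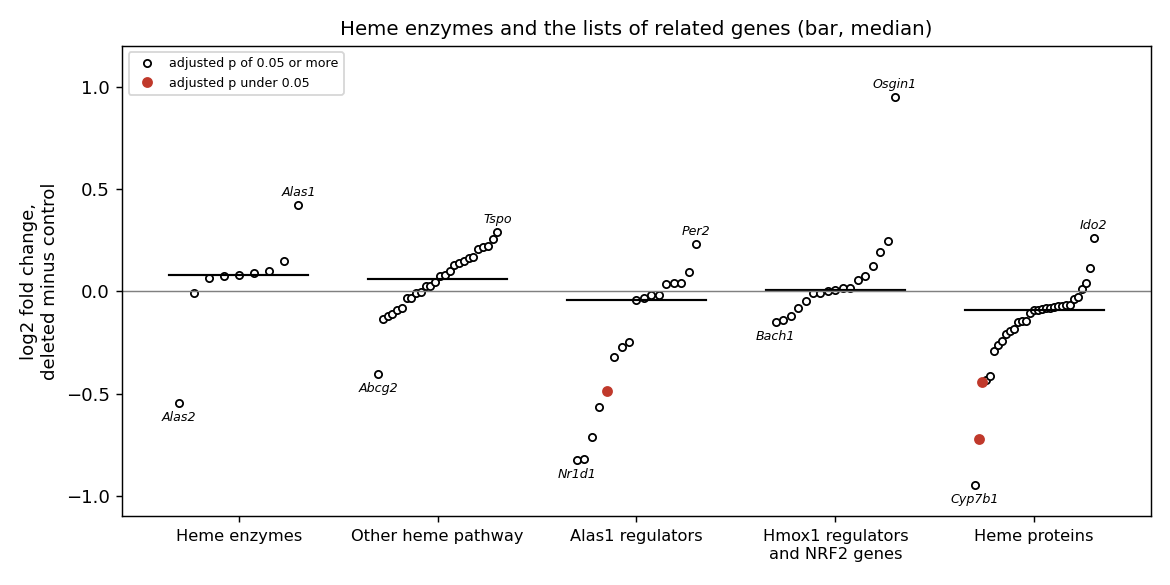
Log2 fold change, deleted minus control, of each measured gene in the heme enzyme set and 4 related lists, ordered within a list, with the median as a bar and filled points where the limma adjusted p was under 0.05. The medians are 0.080, 0.060, −0.043, 0.0050 and −0.090 from left to right, and the filled points are Per1, Tdo2 and Cyp2c55.

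The genes with patterns nearest to each ALAS form were found by the mean absolute difference in log2 intensity over the 8 arrays, after each gene's own mean was subtracted. For Alas2 these were Tedc2 at 0.058, Fbxo21 at 0.067 and the glutathione transferase Gstm4 at 0.072. Their log2 fold changes were −0.60, −0.51 and −0.54, values that the choice by likeness to Alas2 on the same arrays largely fixes. For Alas1 the nearest were Foxa2 at 0.14, Myom2 at 0.15 and Add3 at 0.16. These lay farther from Alas1 than the nearest 3 lay from Alas2. The other 7 heme genes varied by less than 0.5 log2 units over the arrays and were not matched.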

How the data were processed

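Per the submitters' processing notes, the authors summarised Affymetrix Mouse Gene 1.0 ST arrays with RMA and deposited log2 intensities. Per the labels' protocols 150 ng RNA was labelled. No source used here gives the software, its version or the build. RMA compresses small differences of dim probe sets. Of 35556 probe sets, 21789 had 1 gene symbol, and the set with the highest mean over the 8 arrays stood for each of 19938 genes. Groups were compared with limma 3.58.1 in R 4.3.3 (lmFit, eBayes, 2-sided), with Benjamini-Hochberg adjustment over all genes and a threshold of 0.05. Related lists are given as counts and medians without a set test. Named genes were the members, for each list those called or, where fewer than 4 were, the 4 with the smallest p, and the 3 nearest in pattern. Others named beside them, for their known roles, were chosen after their values were seen. The heme genes and lists were chosen with earlier results of these data known. The fit was tested on simulated data. Alternatives are covered at the end, and leaving out both arrays numbered 1 was added after seeing the data. Whether replicate numbers pair the arrays was not settled by the check used, in which 2 of 4 deleted arrays correlated best with their own number. Arrays give no read depth, and their number limits precision. Tables and figures used Python 3.11.15 and matplotlib 3.10.9.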

Additional observations from a re-analysis of the deposited data

Results flagged for a closer look

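Values were singled out where a single array stood well outside the remaining 3 values of a group. In 114 groups of 4 values there were 9, where chance gives about 1 in 20, or 5.7, and 5 of the 9 were on control 1. Among the heme genes, Urod had a log2 intensity of 10.26 on control 1 against 10.50 to 10.53 on the other controls, Cpox 9.73 on control 3 against 9.66 to 9.67, and Hmox1 8.60 on control 2 against 8.41 to 8.43.

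On control 1, Tspo had 8.72 against 9.09 to 9.14, Cyp2j5 12.22 against 12.34 to 12.36, Itih2 12.29 against 12.38 to 12.39 and Gstm4 10.81 against 11.22 to 11.28. Rgs5, a stellate cell marker, had 7.76 on deleted 1 against 7.98 to 8.01 on the other deleted arrays, and Alb 13.26 on deleted 4 against 13.93 to 14.03.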

How the results depend on the processing

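The number of heme genes that passed was 0 in the main comparison and 1, Alas2, in 5 of 17 alternatives. These were quantile normalization again (log2 fold change −0.54), array weights (−0.644), a replicate block (−0.545, adjusted p = 0.0456), control 1 left out (−0.691) and both arrays numbered 1 left out (−0.683). Leaving out each array in turn gave 0 to 1 heme genes past the threshold. The block raised the count of all genes from 138 to 325, but correlations of same-numbered deviations were 0.447, 0.065, −0.081 and 0.422, and 2 of 4 deleted arrays correlated best with the control of their own number.

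Some values near 0 changed sign, and the cause was not tested. Alad had 0.0797 after quantile normalization again, 0.0563 with array weights and 0.080 without both arrays numbered 1, and ran from −0.060 to 0.0667 with each array left out. Fech had −0.020 without both arrays numbered 1 and ran from −0.0392 to 0.117. With each array left out, Alas2 ran from −0.691 to −0.431. Alb had 0.000469 after quantile normalization again, and Foxa2 ran from −0.0142 without control 1 to 0.359 without control 2 and had −0.030 without both arrays numbered 1. The other 7 heme genes kept their direction throughout. Of 48 other genes named by rule, Hmgb1 and Alb included, 30 kept both direction and side of the threshold in every alternative that gave a value. Genes named only for their known roles were not counted, and of these Nr1d2, Dbp and Cyp7b1 crossed the threshold in some alternatives. The count of all genes that passed was 138 (59 higher) in the main comparison, 264 (153 higher) after quantile normalization again, 72 (33 higher) with arrays centred, 526 with array weights, 366 without both arrays numbered 1, and 37 to 321 with each array left out. Signal over background cannot be judged from these values, which limits what is known of dim genes.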
